A study of Arabidopsis thaliana with 9 samples.

Results

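The type-A ARABIDOPSIS RESPONSE REGULATOR (ARR) genes are among the primary transcriptional targets of the plant hormone cytokinin. The 10 genes described here are ARR3 (AT1G59940), ARR4 (AT1G10470), ARR5 (AT3G48100), ARR6 (AT5G62920), ARR7 (AT1G19050), ARR8 (AT2G41310), ARR9 (AT3G57040), ARR15 (AT1G74890), ARR16 (AT2G40670) and ARR17 (AT3G56380). They were chosen by gene identifier as the named family, by a rule that uses no measured value, though with earlier results of these data known. All 10 were found among the 33302 features of the deposited expression table. Leaf messenger RNA was sequenced from Arabidopsis thaliana plants at 21 days of age, kept on soil at 23 °C in days of 16 h light and 8 h dark. The 2 K36M libraries came from Columbia-0 plants carrying an inserted histone H3 gene (HTR5, AT4G40040) in which lysine 36 is replaced by methionine. The 2 WT libraries came from Columbia-0 plants carrying the same gene inserted without the mutation, so both groups hold a transgene beside the endogenous gene. The labels describe each group's libraries as biological replicates, but do not give the promoter of the inserted gene, the number of independent lines or plants behind a library, or whether the inserted gene was heterozygous or homozygous in the plants used for RNA. Per the series' design text, RNA was sequenced to look for expression changes that go with loss of methylation at histone H3 lysine 36, and that loss was not examined here. The series' chromatin libraries were not analysed here.

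Cytokinin is sensed by histidine kinase receptors, which pass a phosphate group through mobile phosphotransfer proteins to response regulators in the nucleus. The type-B response regulators bind DNA and switch on cytokinin-responsive genes, among them the type-A genes. The type-A proteins consist of a receiver domain with little beyond it and act mainly as negative feedback on the same pathway, so their transcripts are widely used as a readout of cytokinin signalling. Cytokinin is known for promoting cell division in shoot meristems and young leaves and for delaying leaf senescence.

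Values were deposited as FPKM, in which fragments are divided by gene length in kilobases and by the library's total, which allows levels of different genes to be compared per unit of length. The fragments counted per library are not stated, so precision rests on the spread between replicates. The tested features had a median of 8.04 and 9.21 FPKM in the K36M libraries (replicates 1 and 2) and 9.60 and 9.10 FPKM in the WT libraries. The FPKM of all features summed to 932464 and 1353463 in K36M and 766727 and 2150314 in WT. The single feature AT2G01021 held 9.01% and 19.6% of these totals in K36M and 1.39% and 34.6% in WT. WT replicate 1 stood apart, with Pearson r across features of 0.821 to 0.834 to the other libraries, against 0.937 to 0.950 among those. HTR5 read 391 and 582 FPKM in K36M and 322 and 711 FPKM in WT, a sum of endogenous and inserted transcripts in which the mutation cannot be seen. Leaf identity was plain in all 4 libraries, the 5 leaf markers summing to 42608 and 50042 FPKM in K36M and 36472 and 86278 FPKM in WT, while 6 root markers summed to at most 0.118 FPKM. Transcripts in bulk leaf RNA cannot tell fewer or more cells of a type from less or more RNA per cell.

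Most of the type-A family was expressed in these leaves, at levels that spread over several orders of magnitude. ARR4 was the highest of the 10 in each of the 4 libraries, with a mean of 253 FPKM, and lay above 94.0% to 97.2% of the tested features. ARR7 followed with a mean of 50.8 FPKM and ARR9 with 34.3 FPKM. ARR6, ARR15, ARR5 and ARR16 came next, with means of 22.7, 20.2, 18.8 and 15.6 FPKM. These 4 could not be placed in order, since each one's range over the libraries overlapped that of its neighbour. ARR8 had a mean of 9.61 FPKM and exceeded both of the lowest genes in every library. ARR17 and ARR3 had means of 0.453 and 0.158 FPKM, and each was listed at 0 in WT replicate 2. All 271 plastid and mitochondrial features were also listed at 0 throughout, so a 0 in this table is not a measure of absence. Apart from the step between ARR8 and ARR17, the ranges of all neighbours in the order overlapped. Within libraries, ARR4 exceeded ARR7 in 4 of 4, and ARR9 exceeded ARR6 in 4 of 4.

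**Figure D1:**
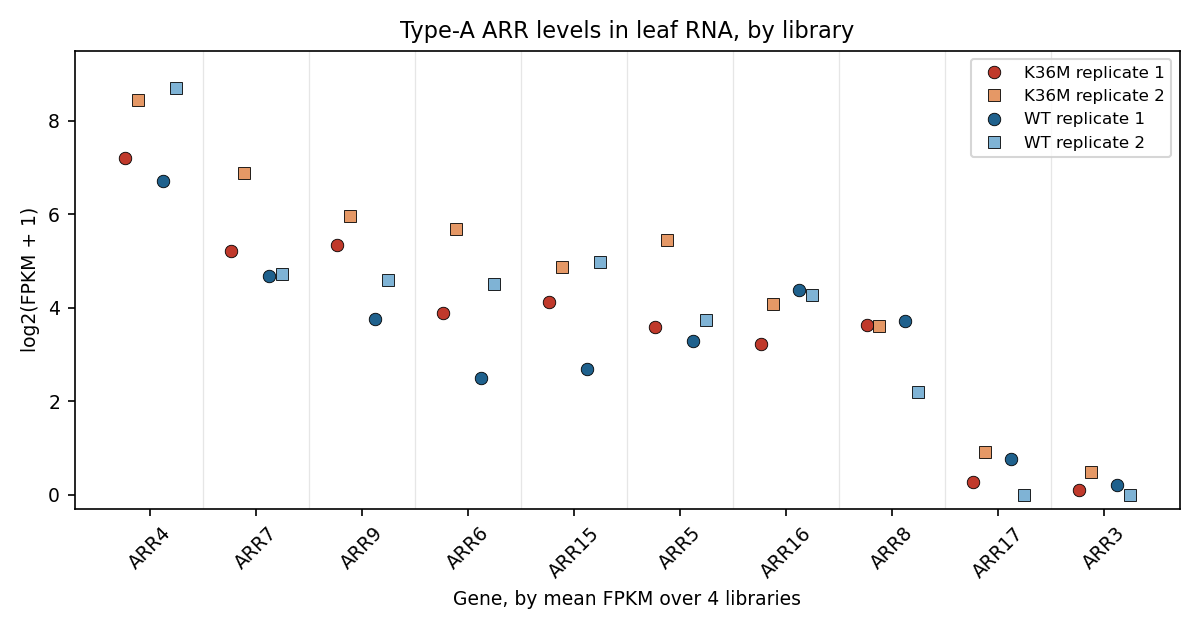
Expression of the 10 type-A ARR genes as log2(FPKM + 1) on the vertical axis, 1 point per library, with genes ordered by mean FPKM and K36M points left of WT points. Both K36M points lie above both WT points for ARR7 and ARR9 and below them for ARR16, and ARR17 and ARR3 lie near 0.

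Groups were compared with limma on log2(FPKM + 1) over the 17738 features averaging 1 FPKM or more, with Benjamini-Hochberg adjustment over all of them and a threshold of 0.05. ARR3 and ARR17 were below that minimum, and the 8 tested genes each read at least 3.62 FPKM in every library. None of the 8 was called, in a comparison that called 0.0395% of all features (7 of 17738), and each had a limma adjusted p of 1. At an unadjusted p under 0.05, limma passed 1 of the 8, ARR9, beside 4.12% of all features. The fitted log2 fold change was above 0 for 7 of the 8, as it was for 8084 of the 17738 features, and their median was 0.83, against -0.05 over all tested features. In 2 of the 8, ARR7 and ARR9, both K36M values exceeded both WT values, as they did in 12.1% of all features. In 1 of the 8, ARR16, the K36M values were both under the lower WT value, as in 19.3% of all features. Together 3 of the 8 had groups that did not overlap, beside 31.4% of all features, and the groups overlapped for the other 5. The median depended on single libraries and was 0.34 without K36M replicate 2, 0.53 without WT replicate 1, 1.29 without WT replicate 2 and 1.41 without K36M replicate 1.

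**Figure D2:**
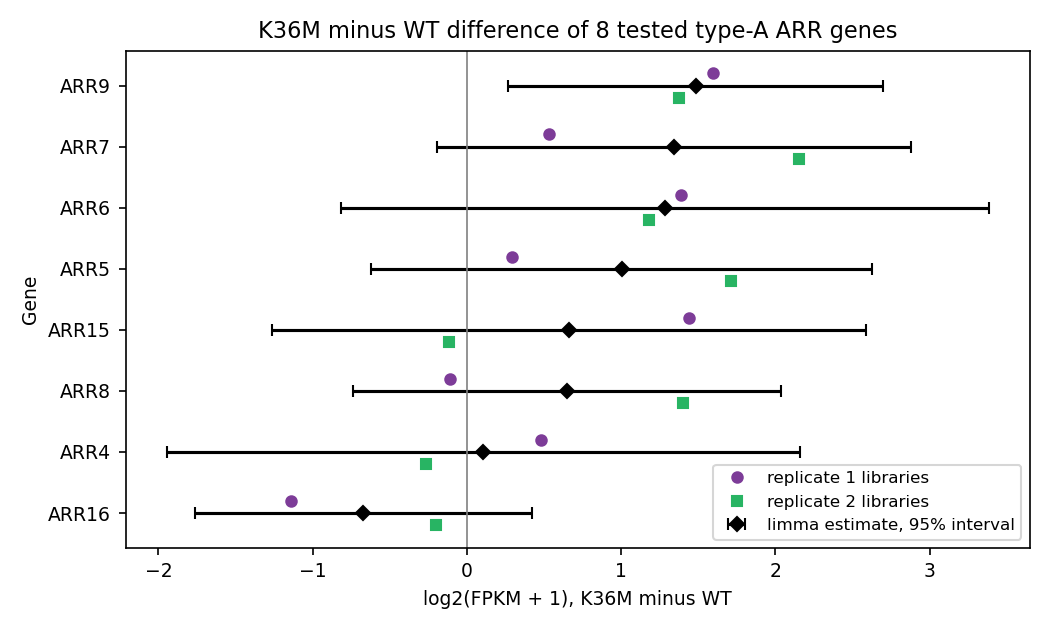
Difference in log2(FPKM + 1) between K36M and WT for the 8 tested genes, with the limma estimate and its 95% interval (black), the difference between the replicate 1 libraries (circles) and that between the replicate 2 libraries (squares). The interval of ARR9, from 0.27 to 2.70, is the one that does not include 0, and it is not adjusted for the number of features tested.

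ARR3 and ARR4 are a pair of closely related genes. ARR4 is known to interact with the red-light receptor phytochrome B, and both genes have been linked to the period of the circadian clock. ARR4 had 146 and 347 FPKM in the K36M libraries and 104 and 417 FPKM in the WT libraries. The replicate 2 library was the higher of each group and the WT libraries enclosed both K36M values, with a log2 fold change of 0.11 ± 0.84 (SE, n = 2 each; limma adjusted p = 1). Its direction was not settled by these libraries, since it was -0.89 without WT replicate 1 and -0.52 without K36M replicate 2. ARR3 was barely read, at 0.0757 and 0.405 FPKM in K36M and at 0.152 and 0 FPKM in WT. The pair thus differed sharply in leaves, with ARR4 at 1925 and 856 times the level of ARR3 in the K36M libraries and 685 times in WT replicate 1. The values do not show whether reads shared between related members were split, which was not examined.

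ARR5 and ARR6 are a second pair, and the promoter of ARR5 is a long-used cytokinin reporter. ARR5 had 11.1 and 42.8 FPKM in K36M and 8.86 and 12.3 FPKM in WT. Only K36M replicate 2 stood clear of the WT range, since K36M replicate 1 lay between the WT libraries. The log2 fold change of ARR5 was 1.00 ± 0.67 (SE, n = 2 each; limma adjusted p = 1), and 0.07 without K36M replicate 2. ARR6 had 13.8 and 50.6 FPKM in K36M and 4.66 and 21.8 FPKM in WT, replicate 2 being the higher in each group. Its difference was 1.39 between the replicate 1 libraries and 1.18 between the replicate 2 libraries on the log2 scale, while the pooled estimate was 1.28 ± 0.86 (SE, n = 2 each; limma adjusted p = 1). It was 0.28 without WT replicate 1 and 0.38 without K36M replicate 2. ARR5 stood at 0.80 and 0.85 times the level of ARR6 in the K36M libraries and at 1.90 and 0.57 times in the WT libraries, so the WT ratios enclosed both K36M ratios.

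ARR7 and ARR15 are known as partners in the shoot meristem, where the homeodomain protein WUSCHEL represses them and where they restrain cytokinin responses. ARR7 had 36.3 and 117 FPKM in K36M against 24.8 and 25.5 FPKM in WT. Both K36M libraries lay above WT, K36M replicate 2 by far the more, and the 2 WT libraries agreed closely. Its log2 fold change was 1.34 ± 0.63 (SE, n = 2 each; limma unadjusted p = 0.076, adjusted p = 1), made up of 0.53 between the replicate 1 libraries and 2.15 between the replicate 2 libraries. Without K36M replicate 2 the estimate was 0.51. ARR15 had 16.5 and 28.2 FPKM in K36M and 5.45 and 30.7 FPKM in WT. The WT libraries enclosed both K36M values, and the difference was 1.44 between the replicate 1 libraries and -0.12 between the replicate 2 libraries. Its log2 fold change was 0.66 ± 0.79 (SE, n = 2 each; limma adjusted p = 1), and -0.49 without WT replicate 1. ARR7 exceeded ARR15 in 3 of the 4 libraries, by 2.20 and 4.14 times in K36M and 4.55 times in WT replicate 1, and stood at 0.83 times its level in WT replicate 2.

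ARR8 and ARR9 form another pair of negative regulators of cytokinin responses. ARR9 had 39.9 and 61.6 FPKM in K36M against 12.5 and 23.2 FPKM in WT, means of 50.8 ± 15.3 and 17.9 ± 7.53 FPKM (SD, n = 2 each). Both K36M libraries lay above both WT libraries with a clear gap, and the difference was alike in the replicate 1 libraries (1.60) and the replicate 2 libraries (1.37) on the log2 scale. The log2 fold change of ARR9 was 1.48 ± 0.50 (SE; limma unadjusted p = 0.024, adjusted p = 1), and it stayed between 1.07 and 1.90 when any 1 library was left out. ARR8 had 11.3 and 11.2 FPKM in K36M and 12.3 and 3.62 FPKM in WT. The K36M values were nearly equal and lay between those of WT. Its log2 fold change was 0.65 ± 0.57 (SE, n = 2 each; limma adjusted p = 1), and -0.11 without WT replicate 2. ARR9 stood at 3.52 and 5.49 times the level of ARR8 in K36M and at 1.02 and 6.40 times in WT.

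ARR16 and ARR17 are the last pair. ARR16 is known as a target of SPEECHLESS in the stomatal lineage of the leaf epidermis, and in poplar an ARR17-like gene acts in sex determination. ARR16 had 8.44 and 15.9 FPKM in K36M against 19.8 and 18.4 FPKM in WT, means of 12.1 ± 5.25 and 19.1 ± 0.994 FPKM (SD, n = 2 each). Both K36M libraries lay below both WT libraries, K36M replicate 1 by the wider margin, and ARR16 was the single tested member with a fold change below 0. Its log2 fold change was -0.67 ± 0.45 (SE; limma adjusted p = 1), made up of -1.14 between the replicate 1 libraries and -0.20 between the replicate 2 libraries, and it was -0.25 without K36M replicate 1. ARR17 was read at 0.210 and 0.886 FPKM in K36M and at 0.716 and 0 FPKM in WT, with the groups overlapping.

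Ratios between members within a library do not depend on how the libraries were scaled. ARR7 stood at 4.31 and 7.36 times the level of ARR16 in the K36M libraries and at 1.25 and 1.39 times in the WT libraries. ARR9 stood at 4.73 and 3.88 times the level of ARR16 in K36M and at 0.633 and 1.26 times in WT. These ratios were formed after the values were seen, from the members whose groups did not overlap, and were not tested. With ARR7 and ARR9 above both WT libraries and ARR16 below both, the ratios had to differ between the groups and add no support. The summed FPKM of the 10 genes was 283 and 675 in K36M and 194 and 552 in WT, with overlapping groups. These sums were not adjusted for the unlike total FPKM of the libraries. ARR4 supplied 51.4% of that sum in each of the K36M libraries, and 53.9% and 75.5% in the WT libraries. The other 9 genes summed to 138 and 328 FPKM in K36M and 89.2 and 136 FPKM in WT, so that K36M replicate 1 lay just above WT replicate 2. ARR9 held 14.1% and 9.13% of the family sum in K36M and at most 6.47% in WT. ARR16 held 2.98% and 2.35% in K36M and 10.2% and 3.33% in WT. ARR7 held 12.8% and 17.3% in K36M and 12.8% and 4.62% in WT, so its replicate 1 libraries were alike. These shares too are of the members whose groups did not overlap, and they add no support.

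**Figure D3:**
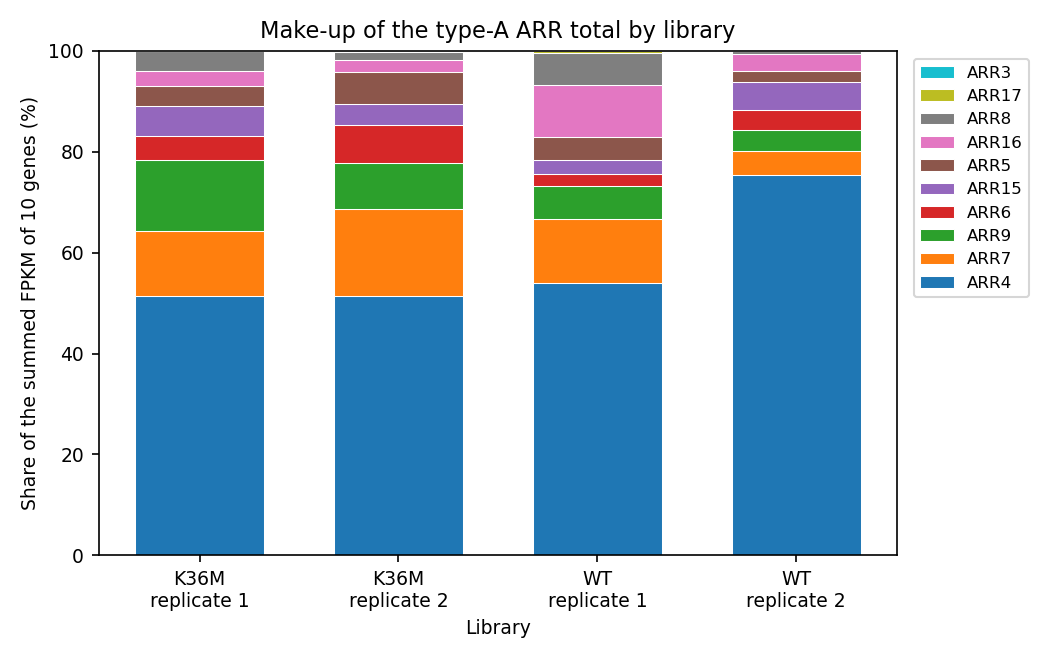
Share of the summed FPKM of the 10 type-A ARR genes held by each gene, in percent on the vertical axis, with 1 stacked bar per library and the K36M bars on the left. ARR4 forms the lowest block at 51.4% in both K36M bars and at 53.9% and 75.5% in the WT bars. The ARR9 block is larger in both K36M bars than in either WT bar, and the ARR7 block is 12.8% in both replicate 1 bars.

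Scaling the libraries to a common upper quartile kept the direction of all 8 fold changes. On that scale ARR5 also ceased to overlap, at 12.6 and 39.9 FPKM in K36M and 9.40 and 10.9 FPKM in WT, which made 3 of 8 genes above both WT libraries beside 16.9% of all features. ARR16 remained below both WT libraries on that scale, beside 14.2% of all features. In RefSeq, ARR6 partly overlaps the neighbouring gene AT5G62910, and ARR8 and ARR9 each partly overlap a long noncoding RNA gene. Whether the authors' counting used strand is not stated, so reads from such overlaps cannot be assigned. AT5G62910 itself had 5.77 and 9.64 FPKM in K36M and 7.43 and 7.89 FPKM in WT, and the groups overlapped.

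The wider cytokinin pathway was read through 66 further genes, 39 of which were tested. None of the 39 was called by limma, beside 0.0395% of all features. At an unadjusted p under 0.05, limma passed 3 of the 39, beside 4.12% of all features. IPT1, which is not among the 3, passed the minimum mean through its K36M values, so no median is given for the 39. Of 20 cytokinin synthesis genes 7 were tested, and 5 of the 20 were listed at 0 in every library. No median is given for this list, since IPT1 is among the 7. IPT3, an isopentenyltransferase of the first committed step, had 6.97 and 5.44 FPKM in K36M against 13.6 and 12.8 FPKM in WT. Both K36M libraries lay well below WT, and the WT pair was tight (log2 fold change -0.98 ± 0.38, SE; limma unadjusted p = 0.040, adjusted p = 1). IPT1, of the same family, had 1.15 and 4.01 FPKM in K36M and 0.601 and 0.772 FPKM in WT, and passed the minimum mean through its K36M values. Among 6 tested of 9 genes of cytokinin breakdown and glucosylation the median was -0.19, and CKX4, a cytokinin oxidase, had 1.67 and 1.38 FPKM in K36M and 8.67 and 2.27 FPKM in WT. Its groups did not overlap, but WT replicate 1 stood far above WT replicate 2, and the log2 fold change was -0.38 with WT replicate 1 left out. It was -1.94 with WT replicate 2 left out, the single alternative under which limma called it. CKX6, a second oxidase, had 1.63 and 1.52 FPKM in K36M and 1.64 and 3.39 FPKM in WT.

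None of the tested genes that carry the signal to the type-A promoters was called by limma, beside 0.0395% of all features. The 3 receptor genes had a median log2 fold change of 0.01. HK3 (AHK3), a receptor known for its part in leaf longevity, had 9.20 and 9.94 FPKM in K36M and 15.3 and 10.3 FPKM in WT, while HK2 (AHK2) had 2.31 and 5.22 FPKM in K36M and 3.21 and 1.84 FPKM in WT. The K36M values of HK3 were the lower and those of HK2 overlapped with WT, and the HK2 estimate was -0.06 without K36M replicate 2. The 4 tested phosphotransfer genes of 6 had a median of 0.49 and went both ways. HP5 (AHP5) had 5.24 and 7.79 FPKM in K36M against 27.0 and 15.3 FPKM in WT, with both K36M libraries below WT (log2 fold change -1.53 ± 0.46, SE, n = 2 each; limma unadjusted p = 0.015, adjusted p = 1). AHP1 had 5.77 and 7.68 FPKM in K36M and 2.67 and 4.66 FPKM in WT. The type-B regulators, the DNA-binding activators of the type-A genes, had a median of 0.05 over 6 tested of 11, within a range of -0.29 to 0.65. ARR14 had 4.92 and 6.47 FPKM in K36M and 4.49 and 2.25 FPKM in WT, and ARR11 had 1.84 and 2.60 FPKM in K36M and 0.989 and 1.66 FPKM in WT. Of the KISS ME DEADLY F-box proteins, which target type-B regulators for degradation, 3 of 4 were tested, with a median of -0.33, and KMD2 had 3.06 and 7.19 FPKM in K36M and 10.2 and 11.3 FPKM in WT. KMD1 had 37.7 and 74.2 FPKM in K36M and 15.3 and 109 FPKM in WT, so its WT libraries enclosed both K36M values. The 2 type-C genes were below the minimum.

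Other genes known to respond to cytokinin had fold changes mostly on the same side as the type-A genes. Of 10 tested, 9 were above 0, as were 8084 of the 17738 features, and their median log2 fold change was 0.68. In 6 of these 10 both K36M values exceeded both WT values, beside the 12.1% of all features. None was called by limma, and 1 of the 10 had an unadjusted p under 0.05, beside 4.12% of all features. CRF2, a cytokinin response factor of the AP2 family, had 9.61 and 18.0 FPKM in K36M against 3.59 and 7.06 FPKM in WT (log2 fold change 1.22 ± 0.50, SE, n = 2 each; limma unadjusted p = 0.048, adjusted p = 1). SHY2, the Aux/IAA repressor IAA3 through which cytokinin is known to dampen auxin responses in the root, had 32.7 and 79.7 FPKM in K36M against 18.2 and 25.6 FPKM in WT. As with ARR5, ARR6, ARR7 and ARR9 among the tested type-A genes, K36M replicate 2 was the highest of the 4 libraries for both genes. The median of this list was 1.05 between the replicate 1 libraries and 0.29 between the replicate 2 libraries, against 0.51 and 1.28 for the type-A genes.

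**Figure D4:**
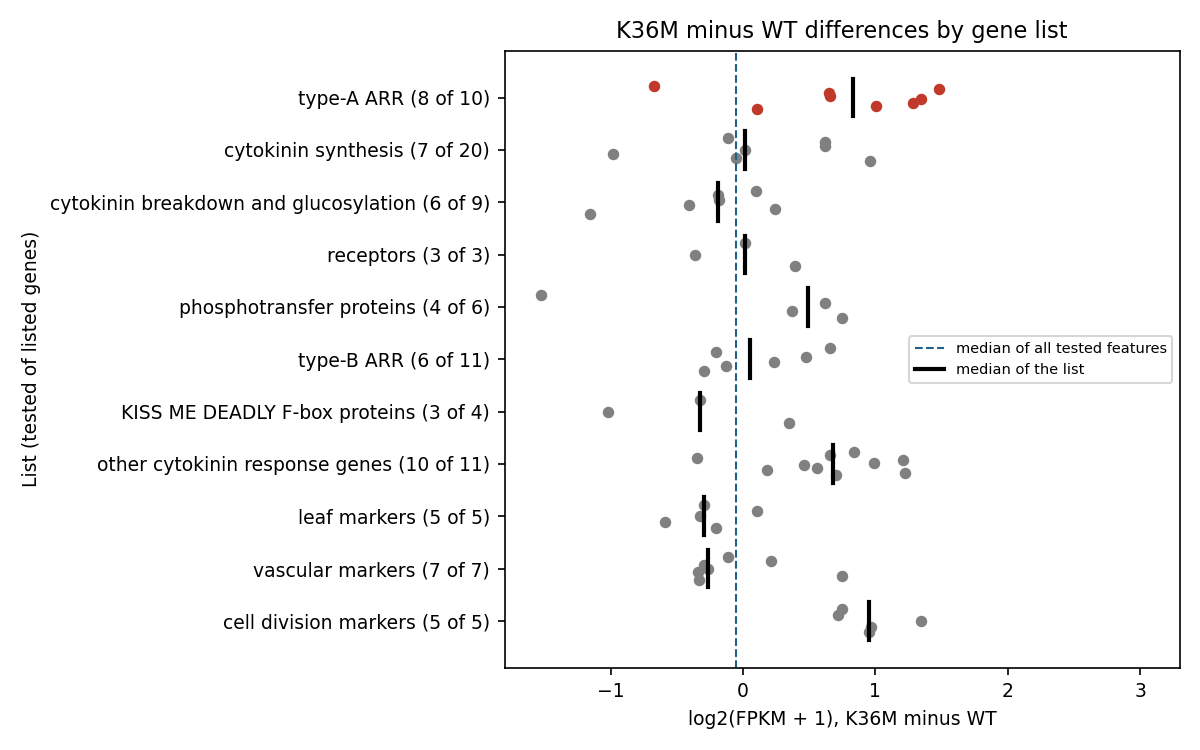
Fitted difference in log2(FPKM + 1) between K36M and WT for every tested gene of the cytokinin lists and of the leaf, vascular and cell division markers, with list medians as vertical bars and the median of all tested features, -0.05, as a dashed line. The type-A ARR median is 0.83 and that of the other cytokinin response genes 0.68, and the receptors and type-B regulators lie at 0.01 and 0.05. The cell division and cytokinin synthesis bars are not read, since CYCB1;1 and IPT1 passed the minimum mean through their K36M values.

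Markers of dividing, meristematic and floral tissue were also read, and their part in the type-A values was not tested. The 5 cell division markers summed to 45.8 and 68.6 FPKM in K36M and 16.9 and 38.1 FPKM in WT. CYCB1;1 passed the minimum mean through its K36M values, so no count or median is given for this list. KNOLLE, the syntaxin of the cell plate, had 15.5 and 35.3 FPKM in K36M and 7.13 and 10.5 FPKM in WT, and CYCB1;3 had 3.70 and 4.39 FPKM in K36M and 1.24 and 1.95 FPKM in WT. The 10 shoot meristem markers summed to 39.5 and 30.4 FPKM in K36M and 16.2 and 34.2 FPKM in WT, with overlapping groups. KNAT2, KNAT6 and CUC3 passed the minimum mean through their K36M values, so no count or median is given for this list either. STM and WUS were listed at 0 in WT replicate 1 and CLV3 at 0 in WT replicate 2. STM, a homeobox gene that maintains the meristem and is known to raise cytokinin synthesis, had 10.6 and 7.89 FPKM in K36M and 0 and 9.73 FPKM in WT, and KNAT1 had 4.19 and 3.67 FPKM in K36M and 0.0354 and 2.69 FPKM in WT. CLV1 and CUC2 of the same list had a lower mean in K36M than in WT, with overlapping groups. CLV1 had 15.1 and 10.8 FPKM in K36M and 15.1 and 16.6 FPKM in WT, most of the list's sum in WT replicate 1. CUC2, below the minimum mean, had 0.477 and 0.360 FPKM in K36M and 0.212 and 1.11 FPKM in WT. The 6 flower markers summed to 11.3 and 18.5 FPKM in K36M and 1.54 and 2.40 FPKM in WT. AP3, PI, AP1 and SEP3 passed the minimum mean through their K36M values, and AG and LFY, below it, overlapped between the groups, so no count or median is given for this list. AP3 had 2.69 and 3.02 FPKM in K36M and was listed at 0 in WT replicates 1 and 2, and PI had 2.91 and 6.28 FPKM in K36M and 0 and 0.527 FPKM in WT. AP1 was also at 0 in WT replicate 1. The vascular markers had a median log2 fold change of -0.26 over 7 genes, with 1 above both WT libraries, beside 12.1% of all features, and 3 below both, beside 19.3%. They summed to 162 and 154 FPKM in K36M and 166 and 195 FPKM in WT. WOX4, a cambium regulator, had 3.03 and 6.12 FPKM in K36M and 2.24 and 2.14 FPKM in WT, and HB-8, a procambium gene, had 7.25 and 5.63 FPKM in K36M and 7.95 and 8.83 FPKM in WT. Among the leaf markers, RCA (rubisco activase) had 6751 and 7075 FPKM in K36M and 7436 and 14457 FPKM in WT, and CAB3 had 3539 and 4699 FPKM in K36M and 2834 and 9217 FPKM in WT.

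Profiles like that of the family were sought over the 4 libraries by the root mean square distance between centred log2(FPKM + 1) values and the mean of the 8 tested members. The nearest features were KIS (AT2G30410) at 0.046, AT4G37180 at 0.049 and AT2G27402 at 0.049, and 19 features lay within 0.1. KIS had 42.6 and 94.9 FPKM in K36M and 31.3 and 49.96 FPKM in WT. The members themselves lay farther from their own mean, from 0.32 for ARR5 to 0.89 for ARR8, so that the mean profile describes ARR5 better than ARR8 or ARR16 (0.77).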

How the data were processed

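The authors deposited FPKM per gene, library and replicate in 1 table without a header. Libraries were mapped to K36M and WT through the names quoted in the labels. A kit that keeps strand was used for the libraries, per the labels' protocols. TAIR10, Bowtie2 and bedtools appear in the submitters' processing notes with no role, and the program behind the FPKM is not given in the sources used here. Gene names and overlaps came from RefSeq TAIR10.1, which held 32361 of 33069 single features. Its coordinates are left out, as its build is not that of the files, and sequences were not used here, so the planned promoter motif and protein identity descriptions were not made.

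FPKM are not counts, so no count model was run. Among 2664 features under 1 FPKM in both replicate 2 libraries, 528 shared 1 ratio of K36M to WT (0.973, within 0.0005 on the natural log scale), against at most 8 for any other pair. The replicate number was therefore treated as a possible batch, and within-replicate differences are given, without a test because each batch holds 1 library per group. The difference of replicate 1 minus replicate 2 rose with log2 gene span (Pearson r = 0.29 in WT and 0.19 in K36M).

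The test was limma's moderated linear model (limma 3.58.1 run under R 4.3.3), two-sided, with a variance prior that follows mean expression. It was applied to log2(FPKM + 1), on which the change of a weakly expressed gene is understated. The step was tested on simulated data. Python 3.11.15, pandas 2.3.3 and matplotlib 3.10.9 served for tables and figures. The members and lists were chosen with earlier results of these data known. Named genes were all 10 members, called genes of each other list or otherwise up to 2 with the largest fold change, and the 3 nearest profiles. AT5G62910, AT2G01021, CLV1, CLV3, WUS, KNAT2, KNAT6, CUC2, CUC3, AP1, SEP3, AG, LFY and CYCB1;1 were named after their values were seen. Alternatives were another pseudocount, filters, scalings, removal of the gene span trend, limma without the trend, the replicate number as a block, and each library left out in turn.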

Additional observations from a re-analysis of the deposited data

How the results depend on the processing

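No type-A gene was called under any of the 13 alternatives run. Over the 9 that kept all 4 libraries, all 8 fold changes kept their direction. The filters, limma without the trend and the replicate block leave a gene's fold change unaltered. Direction could therefore change only under the other pseudocount, the scalings and the removal of the gene span trend. Over the same 9, the family median lay between 0.65 (no filter, which adds ARR3 and ARR17) and 0.98 (quantile normalization). The count of all genes called was 7, and it was 0 with no filter, 0 with the replicate block (limma's unadjusted p was under 0.05 for 1175 and 794 genes), 8 with the block and the gene span trend removed together (900 at an unadjusted p under 0.05) and 0 to 702 with 1 library left out (13 without WT replicate 1, 702 without WT replicate 2). With 1 library left out, the lone library of a group is assumed to vary like the other group. The family median then ran from 0.34 to 1.41, the fold change of ARR4 from -0.89 to 1.10, of ARR15 from -0.49 to 1.81, of ARR8 from -0.11 to 1.41, of KMD1 from -1.03 to 1.72, of STM from -0.082 to 3.34, of CAB3 from -1.18 to 0.52 and of HK2 from -0.064 to 0.85. CKX4, STM, KNAT1 and AP3 were called without WT replicate 2. The replicate numbers were not shown to pair the samples, since the labels tie them to no shared batch and only 2 pairs exist (r = 0.13 between the replicate differences of the groups). The replicate block left every fold change as it was and called none of the named genes. Depth per library is not stated, so no limit of detection can be given for ARR3 or ARR17.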
